A study of Mus musculus with 10 samples.

Results

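Nuclear pore and karyopherin genes were examined in activated muscle stem cells (MuSCs, or satellite cells) from injured mouse muscle. Members were the table entries whose gene symbol belongs to the nucleoporins, the importins, exportins and transportins, or the core of the Ran cycle, as fixed by a pattern of symbols, and 56 of 24608 symbols matched. The pattern itself uses symbols and no measured value, but the set was chosen with earlier results of these data known. Control mice were Trpm7+/+; Pax7CreERT2/+; Rosa26YFP and conditional knockout (cKO) mice were Trpm7flox/flox; Pax7CreERT2/+; Rosa26YFP. All were adult mice of a C57BL6 background that received tamoxifen (TMX), so Cre activity and the YFP reporter were common to both groups. Cre was driven from the Pax7 locus, which restricts recombination to cells that express Pax7 and marks them by YFP. Each library was made from 3000 sorted cells collected 3 days after cardiotoxin (CTX) injury, with 5 libraries per genotype. The comparison asks which of these genes differ in RNA level between MuSCs with and without an intact Trpm7 gene, which encodes a magnesium-permeable channel fused to a kinase.

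The nuclear pore complex is a ring of nucleoporins embedded in the nuclear envelope. Small molecules diffuse through it, whereas most proteins and RNAs cross bound to karyopherins, which are importins and exportins. The GTPase Ran gives this transport its direction, because it is charged with GTP on chromatin inside the nucleus and hydrolyses GTP in the cytoplasm. Dividing cells dismantle and rebuild their pores at mitosis and insert further pores as the nucleus grows, and quiescent MuSCs are small cells that enlarge and enter the cell cycle after injury.

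Library totals ranged from 914353 to 1097707 counts in control and from 205980 to 581117 in Trpm7 cKO, and the groups did not overlap (p = 0.00794 by a two-sided exact permutation test over all 252 splits, the lowest value reachable with 5 against 5 libraries). Every library started from the same number of sorted cells. Less RNA per cell, fewer intact cells per library and a lower library yield or sequencing depth cannot be told apart. Values given below with counts per sorted cell use the same size for every library, so they carry this difference in totals. Trpm7 itself gave 66 to 84 counts per control library and 10 to 55 per cKO library, and its normalized level did not pass the test (log2 fold change −0.09 ± 0.20 (SE), adjusted p = 0.723). The counts come from the 3′ end of transcripts and do not check a deletion elsewhere in the gene. The MuSC label was matched by Pax7, the defining transcription factor of these cells, at 166 to 259 normalized CPM in control and 265 to 557 in cKO libraries, where normalized CPM are counts scaled to the effective library size. Of 15 MuSC identity genes, 13 were tested, 8 of them were higher and 1 lower in cKO, and their summed level was 2592 to 3108 CPM in control and 2832 to 5035 in cKO. Trpm7 cKO replicates 4 and 5 share a number in their library names whose meaning is not stated.

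Of the 56 members, 48 had enough counts to be tested. At an adjusted p below 0.05, 22 were lower in Trpm7 cKO, or 45.8% of those tested, where 24.1% of all 7753 genes tested were lower. In the other direction 2 members were higher, Nup98 and Nup50, which is 4.17% of those tested against 24.6% of all genes. The counts given below for single role groups rest on at most 10 tested members each and are read beside these shares of all genes. The median log2 fold change was −0.32 over the 48 tested members and −0.01 over all genes. Log2 fold changes of single genes are given with their standard error and sums with the SD over libraries. The normalized counts of 20 members were lower in every cKO library than in every control library, which was so for 17.9% of all genes tested. For 2 members they were higher without overlap, against 16.6% of all genes. Past both an adjusted p below 0.05 and a log2 fold change of 1.5, the thresholds used by the study, were 4 members, all lower: Nup93, Rcc1, Sec13 and Ranbp1. Over all genes, 3.53% passed both in the lower direction and 8.49% in the higher, with 0 members in the latter. Of the 24 members not called, 16 had a log2 fold change below 0 and 8 above 0, between −0.61 and 0.71.

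Summed over all 56 members, the level was 6472 ± 462 normalized CPM in control and 4064 ± 426 in cKO (SD, n = 5 each). The lowest control library stood at 5989 and the highest cKO library at 4532. Without the 3 genes of the Ran cycle, the other 53 summed to 4436 ± 244 in control and 3127 ± 278 in cKO, with 4153 as the lowest control and 3417 as the highest cKO value.

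**Figure D1:**
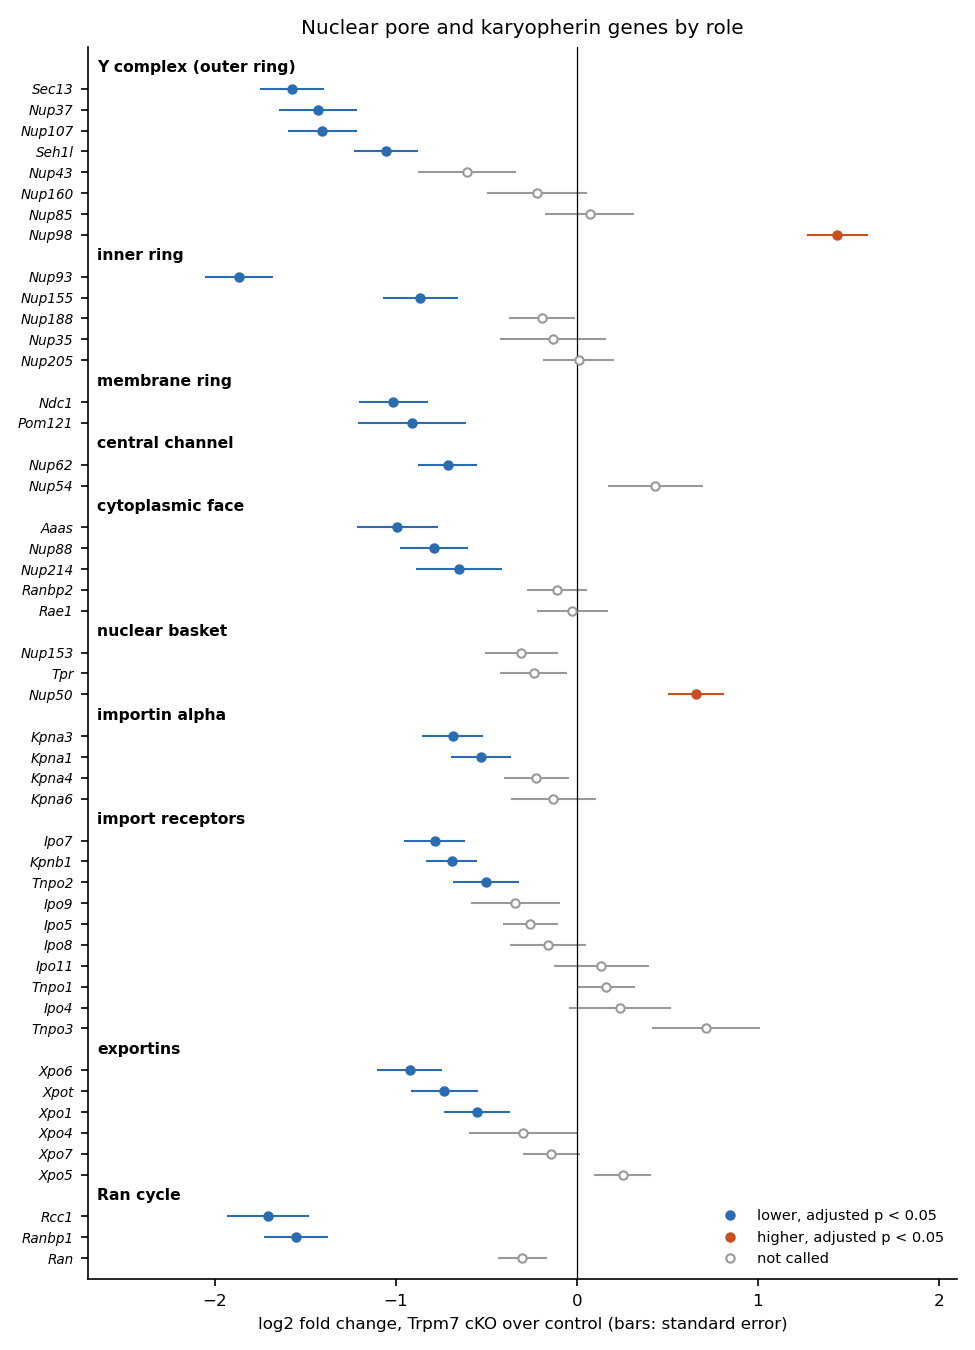
Log2 fold change of Trpm7 cKO over control for the 48 tested members (points, horizontal axis) with its standard error (bars), listed by role. Blue points are the 22 members lower and orange points the 2 higher at an adjusted p below 0.05, open grey points are the 24 not called. The points run from −1.87 (Nup93) to 1.44 (Nup98). Values are relative to the effective library size, and with every library given the same size (counts per sorted cell) Nup98 lay at 0.28 and Nup50 at −0.48, neither called.

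Markers of other cells moved with genotype in the same libraries, although the cells were sorted as YFP-positive. A gate against CD45, CD31 and Sca-1, which would remove leukocytes and endothelial cells, is described for MuSCs of uninjured muscle, and its use on these injured samples is not stated. All 20 tested leukocyte markers were higher in cKO, with a median log2 fold change of 3.21, and the 24 markers on the list summed to 298 to 497 normalized CPM in control and 1308 to 5564 in cKO. The 8 endothelial markers summed to 6.43 to 60.2 in control and 114 to 590.5 in cKO, and both of the 2 tested were higher. The erythroid list, with 4 of its genes in the table, summed to 1.99 to 178 in control and 146 to 3274 in cKO, and all 3 tested were higher. For 8 fibroadipogenic markers the ranges overlapped, 2393 to 4118 in control and 2284 to 4889 in cKO, with 4 of 6 tested higher and 1 lower. No marker was at 0 in all 5 control libraries on any of these lists. The part of these markers in the members' differences was tested only by adding the leukocyte score, the mean log2 CPM of the tested leukocyte markers, to the fit. With it 2 members were called lower (Nup93 and Rcc1) and 1 higher (Nup98), the median log2 fold change of the members was −0.23, and their median standard error went from 0.19 to 0.54. In that fit Ranbp1 stood at −1.60 (adjusted p = 0.0688) and Nup107 at −1.52 (adjusted p = 0.123), whereas Nup155, Nup88 and Kpna1 changed sign to 0.37, 0.11 and 0.075. The leukocyte sums of the genotypes do not overlap, so the score and the genotype cannot be told apart.

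The Ran cycle held the largest drop in summed level of any role group, from 2036 ± 232 to 938 ± 193 normalized CPM. Ranbp1 encodes a cytoplasmic protein that binds Ran-GTP and assists its hydrolysis by RanGAP. Its level was 1473, 969.6, 1407, 1303 and 983 normalized CPM in control replicates 1 to 5, and 355, 414, 380.0, 592 and 331 in cKO replicates 1 to 5. The lowest control library was above every cKO library, and Ranbp1 fell by 1.55 ± 0.18 on the log2 scale (SE, adjusted p = 7.91e-07), with cKO at 0.338 times the control mean. Rcc1 encodes the chromatin-bound exchange factor that charges Ran with GTP. It measured 277, 278, 211, 205 and 265 in control and 49.9, 84.7, 54.8, 126 and 38.6 in cKO. Those groups did not overlap either, although cKO replicate 4 stood above the other 4 cKO libraries, and Rcc1 fell by 1.70 ± 0.23 (adjusted p = 5.53e-06). Ran, the GTPase itself, is shown for comparison and was singled out after its values were seen. It measured 633, 576, 513, 497 and 588 in control and 423, 464, 493, 525 and 359 in cKO. These ranges overlapped, and its log2 fold change of −0.30 ± 0.14 did not pass the test (adjusted p = 0.0748). Ran was called lower with Trpm7 cKO replicate 4 left out (−0.38, adjusted p = 0.0261). It was also called lower without a filter on low counts (−0.51), where the median of all genes was 0.17. When scaled on MuSC identity genes Ran was called lower at −0.78, with that median at −0.51. With counts per sorted cell Ran stood at −1.42 (adjusted p = 0.000482), where that median was −1.15.

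The promoters of these genes are shown because Ranbp1 and Rcc1 fell while Ran was not called. Of the 56 members, 46 were found among the RefSeq promoters of GRCm38.p6, each covering 250 bases before and 50 after the annotated start. Kpna1, Kpna3, Kpna6, Nup210l, Nup35, Nup43, Nup85, Seh1l, Xpo4 and Xpo7 were not matched. Capitals mark matches, on either strand, to 6 motifs: the E2F core (GCGGGAA), the cell cycle homology region or CHR (TTTGAA), the CCAAT box (CCAAT), the E-box (CACGTG), the NRF1 core (GCATGCGC) and the ETS core (CGGAAGT). The NRF1 core is nearly its own reverse complement, so that 1 site can match on both strands. The Ranbp1 window is chr16:18248645-18248944, minus strand, the Rcc1 window chr4:132345701-132346000, minus strand, and the Ran window chr5:129019906-129020205, plus strand. The GENCODE model of Rcc1 (chr4:132331919-132353605) begins upstream of this RefSeq start, which lies inside the gene. The 3 sequences read 5′ to 3′ as follows.
Ranbp1: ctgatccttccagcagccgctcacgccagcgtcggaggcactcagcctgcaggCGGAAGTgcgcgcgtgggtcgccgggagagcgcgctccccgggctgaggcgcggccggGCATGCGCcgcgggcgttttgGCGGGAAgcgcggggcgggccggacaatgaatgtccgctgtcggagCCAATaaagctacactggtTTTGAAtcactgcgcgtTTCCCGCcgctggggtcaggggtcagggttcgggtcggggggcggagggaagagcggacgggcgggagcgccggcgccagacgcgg
Rcc1: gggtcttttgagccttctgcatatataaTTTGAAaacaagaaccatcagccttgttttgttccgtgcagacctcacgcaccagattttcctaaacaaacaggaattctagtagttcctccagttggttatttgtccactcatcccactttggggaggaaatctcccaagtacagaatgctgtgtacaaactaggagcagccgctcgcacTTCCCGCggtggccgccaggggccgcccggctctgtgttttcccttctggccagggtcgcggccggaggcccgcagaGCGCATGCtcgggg
Ran: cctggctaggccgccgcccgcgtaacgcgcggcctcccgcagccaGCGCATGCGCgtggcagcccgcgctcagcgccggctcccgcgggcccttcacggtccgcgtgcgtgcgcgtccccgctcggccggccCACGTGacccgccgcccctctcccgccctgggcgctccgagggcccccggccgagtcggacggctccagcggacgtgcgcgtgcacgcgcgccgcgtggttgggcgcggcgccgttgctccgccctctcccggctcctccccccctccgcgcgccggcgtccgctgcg
The Ranbp1 window held the E2F core at 118 and 36 bases upstream of the start, the CHR at 53, the CCAAT box at 72, the NRF1 core at 139 and the ETS core at 197 bases upstream. Rcc1 held the E2F core at 41 and the CHR at 222 bases upstream, and the NRF1 core after its start. Ran held the NRF1 core at 205 and 203 bases upstream, on both strands of 1 site, and an E-box at 118. It had no match to the E2F core or the CHR in this window.

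Over the 46 promoters, the E2F core was found in 6, or 13%, and in 4.67% of all 27025 mouse promoters in the table. Of the 19 members called lower that had a promoter, 3 held it: Nup107, Ranbp1 and Rcc1. The CHR was found in 8 of those 19, or 42.1%, in 2 of 18 tested members not called and in 18.2% of all promoters. It was also in 1 of the 2 members called higher, Nup98. In members called lower and not called, the E2F core stood in 15.8% and 5.56%, the CCAAT box in 57.9% and 33.3%. For the NRF1 core these shares were 21.1% and 11.1%, for the ETS core 31.6% and 27.8%, for the E-box 21.1% and 27.8%. The NRF1 core was held by 8 of 46 members, or 17.4%, against 2.8% of all promoters, and the ETS core by 11 of 46, or 23.9%, against 6.59%. For the E-box the shares were 19.6% of members and 7.24% of all promoters, and for the CCAAT box 47.8% and 38%. These matches describe letters in the windows and were not tested.

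The Y complex forms the outer rings of the pore on both faces of the envelope and is needed to build new pores. Of its 9 members 8 were tested, 4 fell, 1 rose and 3 were not called, and the summed level went from 854 ± 94.1 to 481 ± 44.5 normalized CPM. Sec13 encodes a propeller protein that the pore shares with the COPII coat of secretory vesicles. It measured 347, 279.8, 395, 389 and 269.7 in control and 135, 112, 73.1, 136 and 88.3 in cKO. All cKO libraries lay below all controls, and Sec13 (chr6:113728062-113740743) fell by 1.57 ± 0.18 (adjusted p = 8.05e-07). Nup107, a stem subunit of the Y, measured 129, 109, 112, 114 and 107 in control and 33.3, 44.2, 43.8, 59.6 and 22.1 in cKO. It fell by 1.41 ± 0.19 (adjusted p = 5.71e-06) with no overlap, and the control libraries were close to each other. Nup37, a propeller subunit of the Y complex, measured 80.5, 60.9, 78.3, 79.3 and 60.2 in control and 33.3, 22.1, 18.3, 33.1 and 16.6 in cKO, a drop without overlap (−1.43 ± 0.22, adjusted p = 2.02e-05). Seh1l, which the pore shares with the GATOR2 complex of amino acid sensing, measured 204, 148, 203, 245 and 145 in control and 90.5, 107, 76.7, 84.5 and 93.8 in cKO. The groups were again apart, and Seh1l fell by 1.05 ± 0.18 (adjusted p = 5.53e-05). The other tested subunits were not called, namely Nup43 (−0.61, adjusted p = 0.0698), Nup160 (−0.22) and Nup85 (0.07).

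Nup98 went the other way. The gene (chr7:102119398-102210176, 33 exons in its annotated transcript) encodes a precursor that is cleaved into Nup98, a mobile protein of the channel rich in FG repeats, and Nup96, a subunit of the Y complex, and it is listed here with the latter. It measured 38.8, 54.7, 53.6, 40.2 and 55.6 normalized CPM in control and 111, 153, 149.8, 118 and 132 in cKO. Every cKO library was above every control, and the log2 fold change was 1.44 ± 0.17 (adjusted p = 1.26e-06), or 2.73 times the control mean. When scaled on MuSC identity genes it was 0.94 (adjusted p = 0.00116), and with counts taken per sorted cell 0.28, not called, the median of all genes being −0.51 and −1.15 on these scales. The promoters of Nup107 (chr10:117792656-117792955, minus strand) and Nup98 (chr7:102210117-102210416, minus strand) are shown as the pair of Y complex genes that moved in opposite directions, with the same motifs in capitals.
Nup107: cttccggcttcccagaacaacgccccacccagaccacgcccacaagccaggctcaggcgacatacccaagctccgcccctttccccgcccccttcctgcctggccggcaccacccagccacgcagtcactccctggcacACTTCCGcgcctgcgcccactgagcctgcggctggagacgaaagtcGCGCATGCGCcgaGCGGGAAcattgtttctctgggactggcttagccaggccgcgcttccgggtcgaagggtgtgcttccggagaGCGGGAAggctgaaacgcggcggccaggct
Nup98: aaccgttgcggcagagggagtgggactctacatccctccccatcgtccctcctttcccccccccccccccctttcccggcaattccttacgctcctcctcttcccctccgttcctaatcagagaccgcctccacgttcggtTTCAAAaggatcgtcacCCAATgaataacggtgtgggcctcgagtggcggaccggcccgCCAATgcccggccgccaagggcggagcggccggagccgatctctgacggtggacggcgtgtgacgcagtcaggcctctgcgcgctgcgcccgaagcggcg
Nup107 held the E2F core at 52 bases upstream and again at base 21 after the start, the NRF1 core at 65 and 63, on both strands of 1 site, and the ETS core at 111 bases upstream. Nup98 held the CHR at 109 and the CCAAT box at 92 and 50 bases upstream, with no E2F, NRF1 or ETS core in the window.

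**Figure D2:**
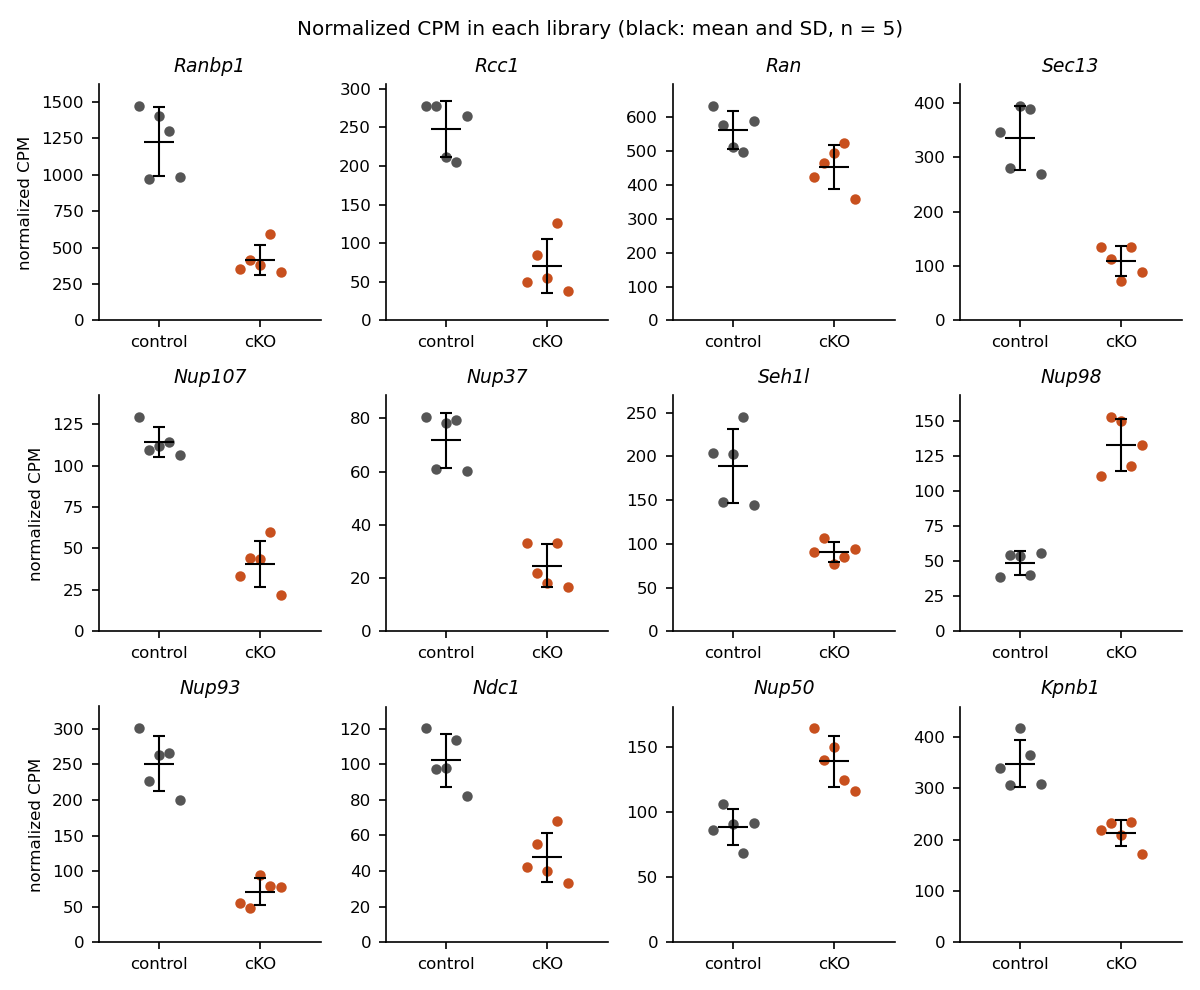
Normalized CPM (vertical axes, from 0) of 12 members in each library, 5 control (grey) and 5 Trpm7 cKO (orange), with the mean and SD in black. Ranbp1, Rcc1, Sec13, Nup107, Nup37, Seh1l, Nup93, Ndc1 and Kpnb1 show no overlap and lie lower in cKO, Ran overlaps, and Nup98 and Nup50 lie higher on this scale. With counts per sorted cell Nup50 turns to a log2 fold change of −0.48.

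The inner ring anchors the pore to the membrane and holds the central channel. All 5 members were tested, 2 fell and 3 were not called. Nup93 (chr8:94214564-94317227), the linker that joins the inner ring to the channel nucleoporins, had the lowest log2 fold change of all members. It measured 301, 226, 263, 266 and 200.3 normalized CPM in control and 55.4, 47.8, 95.0, 79.5 and 77.3 in cKO. The groups were far apart, and Nup93 fell by 1.87 ± 0.19 (adjusted p = 2.06e-07), to 0.283 times the control mean. Nup155, which contacts the membrane, fell by 0.86 ± 0.21 (adjusted p = 0.00183). Nup205 and Nup188, the large scaffold partners of Nup93, were not called at 0.01 ± 0.20 and −0.19 ± 0.18, nor was Nup35 at −0.13.

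The membrane ring consists of proteins that span the envelope. Ndc1, needed for pore insertion, measured 120.3, 97.1, 97.6, 113 and 82.2 in control and 42.5, 55.2, 40.2, 67.9 and 33.1 in cKO. These did not overlap, and Ndc1 fell by 1.01 ± 0.19 (adjusted p = 0.000197). Pom121 fell by 0.91 ± 0.30 (adjusted p = 0.0155) with overlapping groups, and the call was lost without Trpm7 cKO replicate 1 (adjusted p = 0.0515) and without the 2 smallest libraries (0.0584). The last 500 bases of its transcript lie in exons of Nsun5 on the other strand, and since the strand setting of the counting is not stated the genes cannot be told apart. In the central channel, whose FG repeats form the barrier, Nup62 measured 108, 103, 90.1, 104 and 96.1 in control and 57.3, 79.1, 51.2, 59.6 and 49.7 in cKO. It fell by 0.71 ± 0.16 without overlap (adjusted p = 0.00128), while its channel partner Nup54 was not called (0.43 ± 0.26).

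The cytoplasmic face carries the filaments on which exported cargo is released. Of 5 tested members 3 fell. Nup88, part of the platform for Nup214, measured 104, 107, 102, 105 and 120.4 in control and 75.8, 84.7, 47.5, 51.4 and 33.1 in cKO. The groups did not overlap, the cKO libraries spread more widely than the controls, and Nup88 fell by 0.79 ± 0.19 (adjusted p = 0.00171). Aaas, which encodes the WD repeat protein aladin, fell by 0.99. Nup214, a docking site for the exportin Xpo1, fell by 0.65 (adjusted p = 0.0287), a call lost without control replicate 1 or 5 and without Trpm7 cKO replicate 2 or 3, where the adjusted p reached at most 0.0967. It was also lost under DESeq2 (adjusted p = 0.0747), with total counts alone (0.0803), the stricter filter (0.0609) and without the 2 smallest libraries (0.0763). Ranbp2, a large filament protein that binds Ran, was not called (−0.11), nor was the mRNA export factor Rae1 (−0.03).

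The nuclear basket, which projects into the nucleoplasm, had no member called lower relative to the effective library size. Nup50, a mobile basket protein that helps release import cargo from importin alpha, measured 86.5, 106, 91.2, 68.3 and 91.5 normalized CPM in control and 164, 139.9, 149.8, 124 and 116 in cKO. All cKO libraries were above all controls, and its log2 fold change was 0.66 ± 0.16 (adjusted p = 0.00168). The rise depended on the scaling, being 0.13 (adjusted p = 0.604) when scaled on MuSC identity genes and −0.48 (adjusted p = 0.238) with counts per sorted cell. Without a filter on low counts it was 0.46 and not called (adjusted p = 0.0518), the median of all genes being 0.17 in that fit. Tpr, the coiled-coil scaffold of the basket, measured 136, 159, 132, 116 and 138 in control and 75.8, 116, 87.7, 147 and 160.0 in cKO. The cKO libraries fell on both sides of the controls, and Tpr was not called (−0.24 ± 0.18, adjusted p = 0.295). It was called lower when scaled on MuSC identity genes (−0.69, adjusted p = 0.0274) and with counts per sorted cell (−1.40, adjusted p = 0.000771). Nup153, which binds lamins and Nup50, was not called at −0.31. The summed level of the 3 basket genes was 309 ± 30.4 in control and 321 ± 19.5 in cKO.

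**Figure D3:**
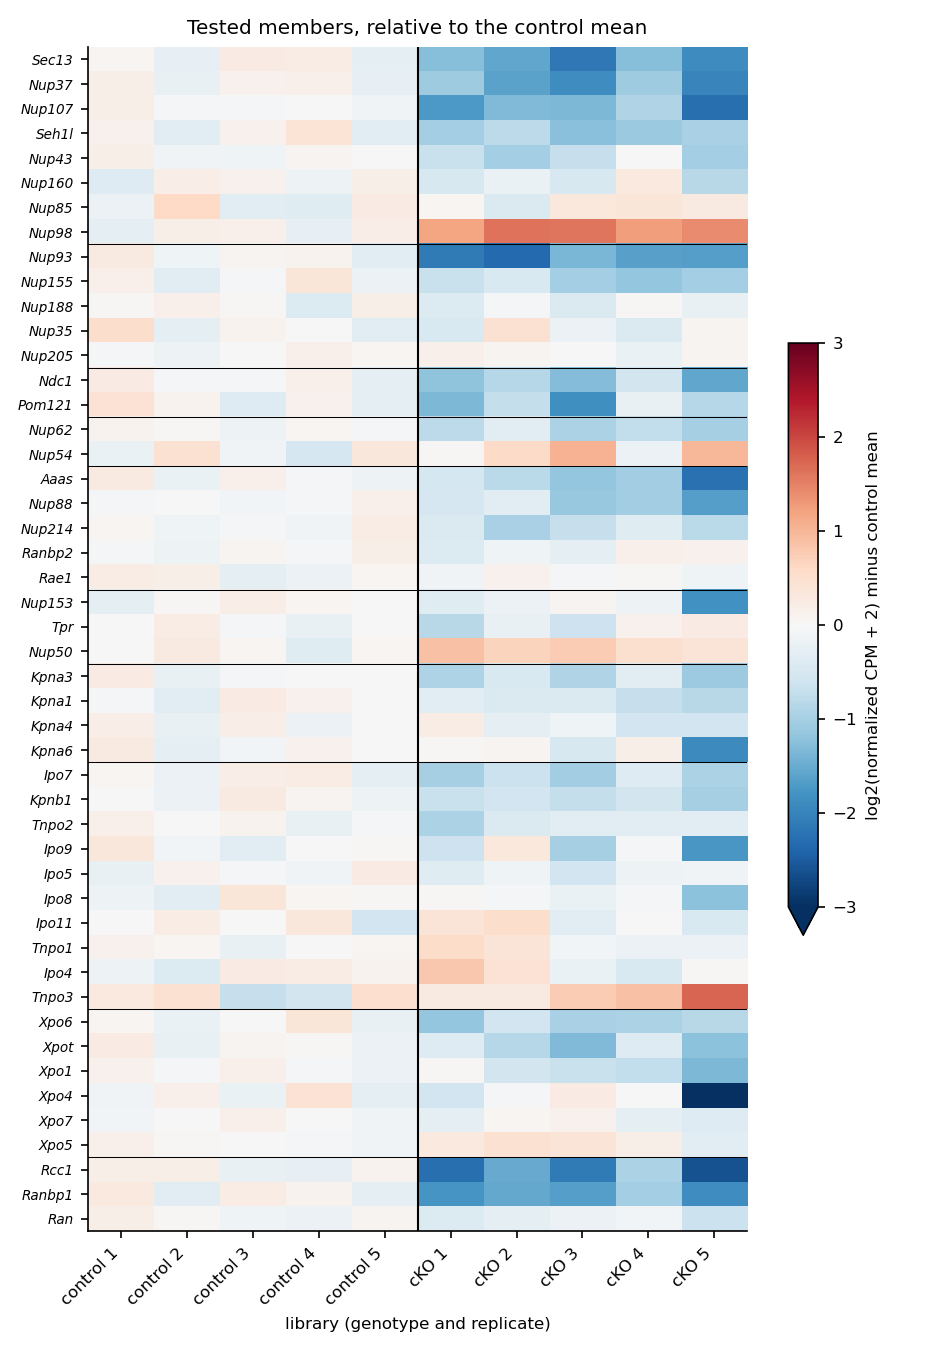
Level of each of the 48 tested members (rows, in the order of the roles) in each library (columns), as log2(normalized CPM + 2) minus the control mean; blue is lower, red is higher, and lines separate roles and genotypes. The colour scale ends at 3 in both directions, and the value of Xpo4 in cKO replicate 5 is drawn at its lower end. The rows of Nup93, Rcc1, Sec13 and Ranbp1 are blue in all 5 cKO libraries, and those of Nup98 and Nup50 are red in all 5 on this scale, where counts per sorted cell put Nup50 at −0.48.

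Among importin alpha genes, whose products bind the classical nuclear localization signal, 4 of 5 were tested, 2 fell and 2 were not called. Kpna3 measured 158, 114, 129.8, 133 and 132 in control and 68.4, 95.7, 69.4, 104 and 60.7 in cKO. It fell by 0.69 ± 0.17 without overlap (adjusted p = 0.00216), and Kpna1 fell by 0.53 (adjusted p = 0.0123). Kpna4 and Kpna6 were not called, at −0.22 and −0.13. Kpna2, the importin alpha best known from dividing cells, had only 4 to 13 counts per control library and 0 to 6 per cKO library and was not tested, and 98.8% of the last 500 bases of its transcript are shared with other annotated genes.

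Of the 11 import receptors 10 were tested, 3 fell and 7 were not called, where 24.1% of all genes tested were lower. Kpnb1, or importin beta, which carries importin alpha and its cargo through the pore, measured 340.1, 306, 417, 365 and 309 in control and 218, 232, 208, 234 and 171 in cKO. The groups did not overlap, and Kpnb1 fell by 0.69 ± 0.14 (adjusted p = 0.000426). Ipo7, an importer of ribosomal proteins among other cargo, fell by 0.78 ± 0.17 (adjusted p = 0.000646). Tnpo2, a transportin, fell by 0.50 (adjusted p = 0.0276), and that call was lost without control replicate 1 or 3 or Trpm7 cKO replicate 1 (adjusted p at most 0.0872), with total counts alone (0.0877) and under the stricter filter (0.0789). Its close relative Tnpo1 was not called at 0.16 ± 0.16. Tnpo3, the importer of SR splicing factors, had the highest value among members not called, 0.71 ± 0.30 (adjusted p = 0.0562). Of the last 500 bases of its transcript 38.4% are shared with Irf5 or Tmem170. An exon of Irf5 lies there on the other strand, and the strand setting of the counting is not stated, so counts of Tnpo3 are uncertain. Ipo5, Ipo8 and Ipo9 stood at −0.26, −0.16 and −0.34 and Ipo4 and Ipo11 at 0.24 and 0.14, none called.

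Of 6 exportins 3 fell and 3 were not called. Xpo1, the receptor for leucine-rich nuclear export signals, measured 218, 191, 221, 189 and 176 in control and 201, 134, 124, 118 and 77.3 in cKO. Replicate 1 of cKO lay within the control range, and Xpo1 fell by 0.55 ± 0.18 (adjusted p = 0.0159). The call was lost with total counts alone (adjusted p = 0.0572), the stricter filter (0.0555) and without the 2 smallest libraries, cKO replicates 3 and 5 (0.0771). Xpo6, which exports actin bound to profilin, fell by 0.92 ± 0.18 (adjusted p = 0.00025). Xpot, the exporter of tRNAs, fell by 0.73 ± 0.18 (adjusted p = 0.00261). Xpo5, the exporter of microRNA precursors, was not called at 0.25 ± 0.16, nor were Xpo4 (−0.29) and Xpo7 (−0.14).

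Ratios of counts within a library do not depend on scaling, and 4 of them, chosen after the values were seen, are given as a description. Ranbp1 over Ran was 2.32, 1.68, 2.74, 2.62 and 1.67 in control replicates 1 to 5 and 0.838, 0.893, 0.770, 1.13 and 0.923 in cKO replicates 1 to 5. Rcc1 over Ran ranged from 0.412 to 0.482 in control and from 0.108 to 0.240 in cKO. Both ratios were lower in every cKO library than in every control library. Nup107 over Nup98, both listed with the Y complex, was 1.92 to 3.33 in control and 0.167 to 0.507 in cKO. Nup93 over its partner Nup205 was 5.24 to 8.66 in control and 1.24 to 2.60 in cKO. Each ratio thus shows unequal change of its numerator and denominator, and counts of different genes are not taken here as comparable levels.

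**Figure D4:**
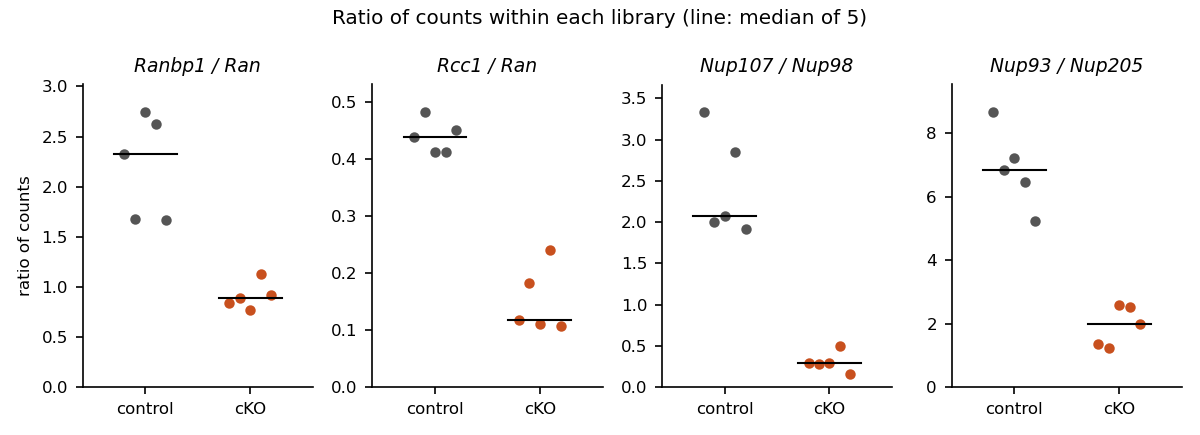
Ratio of the counts of 2 members within each library (vertical axes, from 0), for 5 control (grey) and 5 Trpm7 cKO libraries (orange), with the median as a line. The median of Ranbp1 over Ran is 2.32 in control and 0.893 in cKO, and none of the 4 ratios overlaps between genotypes.

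The 8 members not tested did not pass the filter on low counts. Nupl1 is listed at 0 in every library, and since GENCODE M21 gives it no protein-coding transcript, whether reads of this gene could be counted is not known here. Nup62cl and Nup210l, paralogs of nucleoporins, had at most 3 and 2. Nup62cl, the paralog with the highest mean, measured 1.99, 0, 1.07, 3.01 and 3.47 normalized CPM in control and 3.70, 1.84, 3.65, 0 and 5.52 in cKO, too few counts to compare. Nup133 of the Y complex gave 3 to 9 counts in control and 1 to 5 in cKO libraries, Nup210 of the membrane ring 9 to 11 and 2 to 5, Nupl2 of the cytoplasmic face 8 to 12 and 1 to 5, and the importin Ipo13 4 to 9 and 2 to 7. Since control libraries were deeper, these raw counts make no comparison.

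The 56 genes lie on 17 chromosomes. Of the tested members, 11 share sequence of 31 bases with another annotated gene in the last 500 transcript bases, where these reads fall, and their counts are less certain. The shared part was 26.0% for Sec13, 21% for Ranbp1 and 10.4% for Nup93, where it is a repeat, and 88.8% for Nup35. For Pom121, Tpr, Nup214, Tnpo3 and Nup88 an exon of another gene overlaps on the opposite strand.

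Other genes of nuclear transport and of the envelope were read from 3 lists. Of 49 such genes 45 were tested, 12 were lower and 8 higher, with a median log2 fold change of −0.22. That is 26.7% lower and 17.8% higher, where 24.1% and 24.6% of all genes tested were, so the share lower is close to that of all genes. Among 19 tested mRNA export genes 4 fell and 1 rose. Nxt1, the partner of the export receptor Nxf1, fell by 1.69 and Eny2, a subunit of the TREX-2 complex, by 1.14, while Chtop rose by 0.69. Among 12 tested partners of Ran and karyopherins 4 fell and 2 rose. Cse1l, which returns importin alpha to the cytoplasm, fell by 1.24 ± 0.17 (adjusted p = 4.5e-06) and Ncbp1, the large subunit of the nuclear cap-binding complex, changed by −1.12, while Senp2 rose by 0.53. Among 14 tested genes of the lamina and envelope 4 fell and 5 rose. Banf1, which binds DNA during nuclear envelope reassembly, fell by 2.28 and the B-type lamin Lmnb2 by 1.66, while Sun2, an inner membrane protein of the LINC complex, rose by 1.64 and Lemd2 by 1.20. All of these are relative to the effective library size.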

How the data were processed

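MuSCs were profiled by CEL-Seq2, a 3′-end RNA-seq method with unique molecular identifiers (UMIs), in 5 control and 5 Trpm7 cKO libraries. Per the labels and the study's methods, the authors extracted UMIs with UMI-tools 1.1.4, trimmed with Trim Galore 0.6.10, aligned to GRCm38 with HISAT2 2.2.1, assigned reads with featureCounts 2.0.6 and removed UMI duplicates. The deposited values are whole-number counts per gene without normalization. The annotation release and strand setting are not given in the sources used here. Groups and replicate numbers came from the sample titles. No source used here says that the libraries of a genotype came from separate mice, so p-values measure the spread between libraries.

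The table holds 24620 entries, and 12 further lines of a repeated symbol were dropped in favour of the larger. The counts entered edgeR 4.0.16 (R 4.3.3), where filterByExpr with a minimum count of 10 and a minimum total of 15 left 7753 genes. A robust quasi-likelihood fit on TMM-scaled libraries contrasted the genotypes without covariates, and p-values of its F test were adjusted over all tested genes by the Benjamini-Hochberg method. A member was called at an adjusted p below 0.05. The standard error of a log2 fold change was the absolute change divided by the square root of its F statistic. Normalized CPM are CPM relative to the effective library size, and log2 CPM used a prior count of 2. The fit was tested on simulated data. Alternatives were DESeq2 1.42.0, limma-voom (limma 3.58.1), other scalings, filters, thinning, a replicate block, a leukocyte score and libraries left out. The 2 smallest libraries were left out together as an alternative chosen after seeing the data.

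The members, their role groups and all gene lists were chosen with earlier results of these data known. Every library's value is given for called members beyond a log2 fold change of 1, for the member of each role group with the highest mean CPM and for up to 3 called members with the highest positive change. From the other lists the 2 lowest and 2 highest called genes are named. A gene that this rule would name is not reported here. Sequences are from RefSeq (GRCm38.p6) and gene positions from GENCODE M21.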

Additional observations from a re-analysis of the deposited data

How the results depend on the processing

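The 22 members called lower were 19 to 26 under DESeq2, limma-voom, RLE factors, total counts, no filter, the stricter filter and the replicate block. The same range held with Trpm7 cKO libraries 4 and 5 summed and without the 2 smallest libraries. All 22 stayed among those called lower under limma-voom, RLE factors, no filter and with libraries 4 and 5 summed. After thinning, where 33 members were tested, 15 were called lower. Scaling shifted the all-gene median from −0.01 to −0.51 on MuSC identity genes, −1.15 with counts per sorted cell and 0.10 with total counts. With counts per sorted cell 44 members were lower, 0 higher and 23 past both thresholds. On that scale 5542 of all 7753 genes tested were called in either direction. The members' median was −1.43, 33 other nuclear transport genes were called instead of 20, and Nup50 reversed to −0.48. On MuSC identity genes 33 members were lower, 1 higher and 9 past both, with a median of −0.84, and 4234 of all genes were called. Without a filter, where the all-gene median was 0.17, 1 member was higher, Nup98, while Nup50 lost its call (0.46, adjusted p = 0.0518). Under the stricter filter 4 were higher. After thinning 2 passed both thresholds, 1760 genes and 13 other transport genes were called. With the leukocyte score 2 members were lower and 1 higher, 480 of all genes (3774 without it) and 1 other transport gene were called, and Nup155 (0.37), Nup88 (0.11) and Kpna1 (0.075) reversed. The cause of these shifts was not tested. Without the 2 smallest libraries 1 member, Nup93, passed both thresholds, with Ranbp1 at −1.43, Sec13 at −1.39 and Rcc1 also short of the fold threshold. With all 10 libraries 9 called members lay beyond a log2 fold change of 1. Leaving out each library gave 20 to 24 members lower, 2 to 3 higher and 3 to 6 past both thresholds, medians of −0.46 to −0.31, 3399 to 4094 genes and 17 to 22 other transport genes called; only Pom121, Nup214 and Tnpo2 among the 24 called members lost their call in any of these fits. Replicate numbers did not pair the libraries, the correlation of same-numbered deviations being −0.12 to 0.18, and with the replicate block 20 members were lower, 3 higher and 4 past both, with a median of −0.41; Nup214 and Tnpo2 were no longer called. Among the 24 called members, Nup214 lost its call under DESeq2, total counts, the stricter filter and without the 2 smallest libraries, Tnpo2 and Xpo1 under total counts and the stricter filter, Xpo1 and Pom121 without the 2 smallest libraries, and Kpna1, Tnpo2 and Xpot after thinning. The 8 members not tested had too few counts for the filter, and why was not tested.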
